A study of Mus musculus with 12 samples.

Results

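Amino acid transporters of the Slc1, Slc3, Slc6, Slc7, Slc36, Slc38 and Slc43 families were examined in sorted epithelial cells of the mouse prostate. Every gene with a probe set annotated to a single symbol of these families was taken, 63 genes in all. A probe set had to exceed the 40th percentile of its array on 3 or more arrays, and the brightest that did so stood for its gene. This left 47 genes of the 14645 kept over the whole array: 7 of 7 in Slc1, 2 of 2 in Slc3, 12 of 21 in Slc6, 13 of 16 in Slc7, 3 of 5 in Slc36, 7 of 9 in Slc38 and 3 of 3 in Slc43. Of the 47, 19 lay above that percentile on all 12 arrays, and 2 (Slc6a19os and Slc7a6os) are opposite-strand neighbours that share a name with a transporter but are not transporters themselves. The 16 genes not kept were Slc36a1os, Slc36a2, Slc38a4, Slc38a5, Slc6a7, Slc6a11, Slc6a13, Slc6a15, Slc6a16, Slc6a18, Slc6a19, Slc6a20a, Slc6a20b, Slc7a9, Slc7a13 and Slc7a15.

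The cells came from adult male C57BL/6 mice aged 8 weeks that underwent surgical castration or remained uncastrated, and were studied 4 weeks afterwards. Lineage-negative, EpCAM-positive cells were sorted as luminal (low CD49f) or basal (high CD49f), and RNA was amplified before labelling. This gave 4 groups of 3 arrays: luminal cells of intact mice, luminal cells of castrated mice, and the basal cells of each, with a biological replicate behind every array. The sources used here do not say how many mice made up a replicate. The basal keratin Krt5 separated the sorted populations: its signal was 15237 to 25733 on intact basal arrays and 19.96 to 489 on intact luminal arrays, and 23582 to 31827 and 5.892 to 62.71 after castration. The luminal keratins were present in both populations. Krt8 was higher on luminal arrays, at 21538 to 27155 against 10950 to 16437 in intact and 24004 to 28991 against 15305 to 19293 in castrated mice. Krt18 was 38655 to 50009 on intact luminal and 27475 to 31887 on intact basal arrays, but 28227 to 40003 on castrated luminal and 33233 to 47342 on castrated basal arrays. Within every group the array weight was lowest for replicate 3, down to 0.363 for intact luminal and 0.434 for castrated basal cells, so calls that depended on single arrays are named below. Precision is limited by having 3 arrays a group, and each array measured a sorted pool, in which fewer cells of a type and less RNA per cell cannot be told apart.

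Amino acid carriers work in modules. The Slc7 light chains of the large neutral and exchanger type reach the plasma membrane only when joined to a heavy chain, Slc3a2 or Slc3a1. Slc1 and Slc38 members use the sodium gradient to load cells with neutral amino acids such as glutamine, alanine and serine, or with glutamate, and the light chains then trade these for leucine, cystine and other essential amino acids. Slc6 holds carriers of amino acids, taurine, creatine and monoamine transmitters, Slc36 holds proton-coupled carriers, and Slc43 holds uniporters of large neutral amino acids. The prostate secretes a fluid rich in protein and small metabolites, so both the supply for protein synthesis and the handling of taurine and glutamate are of interest in its epithelium. In many cell types a shortage of amino acids raises a set of transporter and biosynthesis genes through the transcription factor ATF4, which binds a C/EBP-ATF composite element.

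That element, spelled TGATGNAA, was searched on both strands of the RefSeq promoter windows of build GRCm38.p6, which reach from 250 bases before to 50 bases after a transcription start. It occurred in 3.97% of all 32851 windows. Of the 47 kept genes 35 had a window, 50 windows in all, of which 5 held the element, in 4 genes: Slc1a4, Slc6a21, Slc7a7 and Slc7a11. The stretches of Slc1a4 and Slc7a11 are shown because these genes rose after castration, the first in basal and the second in luminal cells. Both rises were lost by limma with the mean of the probe sets of a gene (adjusted p = 0.218 and 0.162). Slc6a21 and Slc7a7 were not called in any comparison. A link between the element and castration was not tested. Each stretch runs 5′ to 3′ along the gene from 90 bases before to 30 bases after the start, with matches to the element in capitals. In Slc7a11 the element occurred in both orientations, with first bases 66 and 47 bases before the start, and in Slc1a4 it overlapped the start itself.
Slc1a4, chr11:20332684-20332803, minus strand: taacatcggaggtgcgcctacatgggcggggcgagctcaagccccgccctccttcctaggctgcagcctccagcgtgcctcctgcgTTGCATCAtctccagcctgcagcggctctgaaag
Slc7a11, chr3:50443584-50443703, minus strand: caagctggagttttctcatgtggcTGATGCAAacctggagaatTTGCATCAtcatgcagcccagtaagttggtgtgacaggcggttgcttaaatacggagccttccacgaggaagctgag
The half-site of the androgen response element, AGAACA, read on both strands, occurred in 19.0% of all windows and in 10 of the 50 windows of the kept genes, which belong to 6 genes: Slc1a3, Slc36a1, Slc6a21, Slc7a1, Slc7a7 and Slc7a11. These matches describe letters in the windows and do not show binding.

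**Figure D1:**
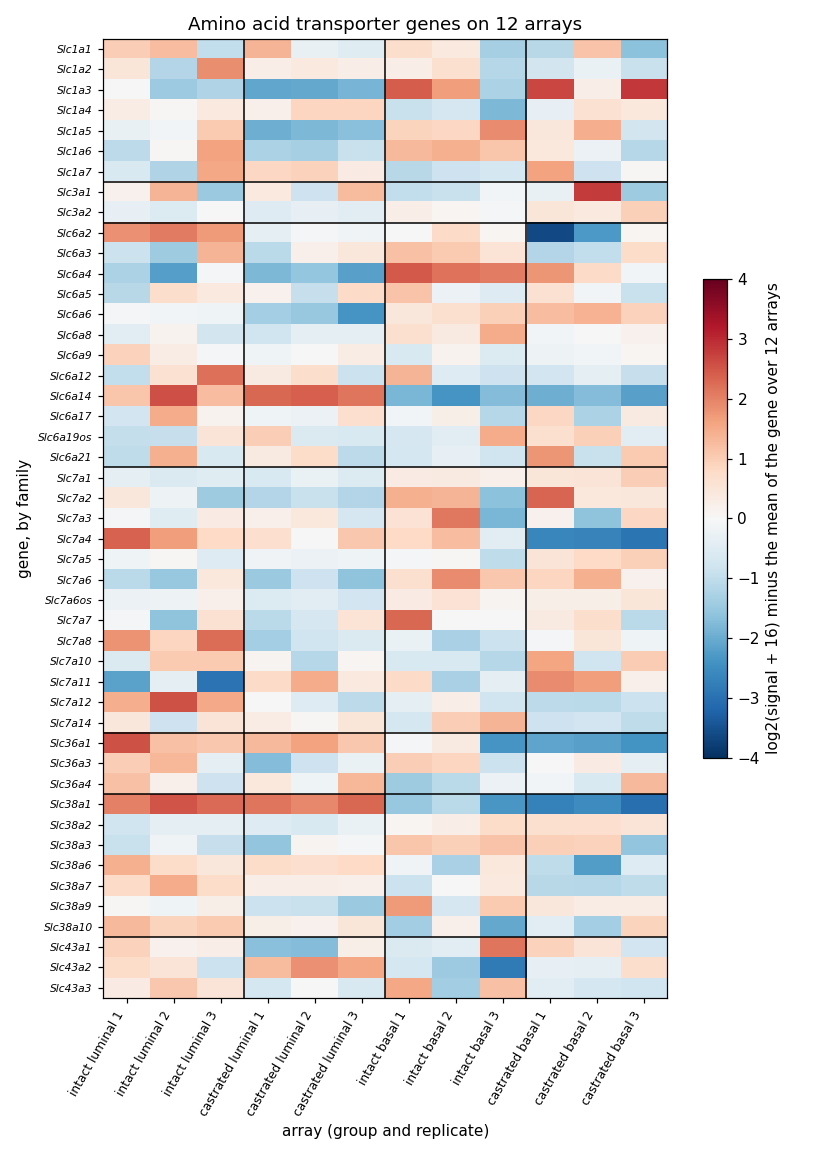
Rows are the 47 kept genes by family and columns the 12 arrays by group and replicate; colour gives log2(signal + 16) minus the mean of the gene over the 12 arrays. Slc38a1 and Slc6a14 are red on all 6 luminal arrays and blue on all 6 basal arrays.

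The first question was how castration changed the transporters of luminal cells. The taurine carrier Slc6a6, the light chain Slc7a8, the glutamine carrier Slc1a5 and the light chain Slc7a12 fell, and the cystine and glutamate exchanger Slc7a11 rose. These were 5 of 47 genes (1 higher, 4 lower), beside 5.86% called over all genes tested (2.90% higher and 2.96% lower). A call is an adjusted p under 0.05 from limma, with Benjamini-Hochberg adjustment over all 14645 genes, and differences are in log2(signal + 16) with the standard error of the fit over all 4 groups (n = 3 per group). The median log2 difference was -0.20 over the 47 genes and -0.09 over all genes tested.

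Slc6a6, which takes taurine into cells, gave 4497, 4354 and 4208 units of signal in intact luminal cells and 1825, 1623 and 912 in castrated ones. The groups did not overlap, and Slc6a6 fell by 1.63 on the log2 scale (SE 0.26, adjusted p = 9.95e-04), a call kept in all 12 leave-outs of 1 array. Its 3 other kept probe sets, fitted singly, also had lower values after castration, by -0.96, -1.43 and -0.29, of which the second passed (adjusted p = 0.00514).

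Slc7a8, a light chain that exchanges neutral amino acids, had signals of 744, 386 and 1026 in intact and 69.42, 111 and 132 in castrated luminal cells. Every castrated array lay below every intact array, and Slc7a8 fell by 2.54 (SE 0.55, adjusted p = 0.00921). The call was lost without castrated luminal replicate 1 (-2.32, adjusted p = 0.0616). Slc7a12, a neutral amino acid carrier of rodents, went from 86.13, 203 and 91.29 to 20.85, 10.04 and 2.069. Slc7a12 fell by 2.37 (SE 0.54, adjusted p = 0.0133). It lay under the 40th percentile on all 3 castrated luminal arrays and on every basal array. Slc7a12 therefore met the filter through the 3 intact luminal arrays alone, and both of its calls use the values that admitted it. Its fold is set in part by the constant of 16. The call was lost without intact luminal replicate 2 (adjusted p = 0.0519), castrated luminal replicate 2 (0.0565) or castrated luminal replicate 3 (0.0917).

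Slc1a5, a sodium-dependent exchanger that brings in glutamine, had signals of 1035, 1165 and 2648 in intact luminal cells and 311, 353 and 388 in castrated luminal cells. The castrated arrays lay close together and below all intact arrays, of which replicate 3 was the highest. Slc1a5 fell by 2.03 (SE 0.50, adjusted p = 0.0211). The call was lost without intact luminal replicate 3 (-1.61, adjusted p = 0.106) and without castrated luminal replicate 1 (0.0805), 2 (0.0717) or 3 (0.0635). A second probe set of Slc1a5, fitted singly, differed by -0.61 (SE 0.37, adjusted p = 0.407) and did not pass.

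Slc7a11, which imports cystine for glutathione synthesis in exchange for glutamate, had signals of 28.88, 139 and 9.20 in intact and 318, 531 and 240 in castrated luminal cells. All castrated arrays lay above all intact arrays, 2 of which were under the 40th percentile. Slc7a11 rose by 2.69 (SE 0.74, adjusted p = 0.0385). The call was lost without intact luminal replicate 1 (adjusted p = 0.0974) or 3 (0.156) and without castrated luminal replicate 1 (0.113), 2 (0.171) or 3 (0.0866). The second probe set of Slc7a11 differed by 0.57 (SE 0.82) and did not pass.

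Carriers that did not pass in luminal cells included the heavy chain Slc3a2 (-0.12 ± 0.22) and its partner Slc7a5 (0.02 ± 0.27) and the arginine and lysine carrier Slc7a1 (0.01 ± 0.17). The probe sets of the system A carrier Slc38a2 disagreed: the brightest differed by 0.05 ± 0.22 and did not pass, whereas the 2 others, fitted singly, were lower after castration and passed (-1.39, adjusted p = 0.0217, and -1.43, adjusted p = 0.0069). With the mean of its probe sets Slc38a2 was called lower (-0.92, adjusted p = 0.0164). By its brightest probe set, no member of Slc3, Slc36, Slc38 or Slc43 passed in luminal cells by limma (0, 1, 0 and 1 of them had an unadjusted p under 0.05). Slc6a2, the noradrenaline carrier, did not pass either, and is described because of its values: 2681, 3218 and 2497 in intact and 575, 719 and 673 in castrated luminal cells, groups that did not overlap (-2.07 ± 0.63, adjusted p = 0.0672). It passed without castrated basal replicate 3 (adjusted p = 0.00448) or castrated basal replicate 1 (0.0201), arrays outside the comparison that enter through the shared estimate of spread. It also passed with a constant of 64 (0.0321), with array weights (0.00185) and with the mean of its probe sets (0.0154), and 1 of its 3 other probe sets passed singly (-2.11, adjusted p = 0.0441). Slc43a2, a uniporter of large neutral amino acids, was higher on every castrated than on every intact luminal array, at 7736, 11453 and 9438 against 5362, 4579 and 1768, and missed the threshold (1.42 ± 0.48, adjusted p = 0.0983). It passed without intact basal replicate 3 (adjusted p = 0.0399), with median centring (0.0273), with array weights (0.0323) and with the mean of its probe sets (0.0382). Of the 2 other probe sets of Slc43a2, fitted singly, 1 passed (2.72, adjusted p = 0.0232) and 1 did not (0.28, adjusted p = 0.895).

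Genes listed as markers of other cells, and seminal vesicle genes, also differed between the same luminal arrays. The summed signal of 8 fibroblast markers was 7704 to 13797 on intact and 639 to 877 on castrated luminal arrays, with 6 of 8 lower and Col1a1, Sparc and Pdgfra under the 40th percentile on all castrated luminal arrays. The 6 seminal vesicle genes, all lower, summed to 238651 to 394826 and 21239 to 40350. Whether their transcripts came from the luminal cells or from other cells was not tested. The 5 endothelial markers summed to 211 to 888 and 37.2 to 134, with none called, and the 7 leukocyte markers to 289 to 679 and 190 to 344, with none called. The part of these cells in the transporter differences was not tested.

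**Figure D2:**
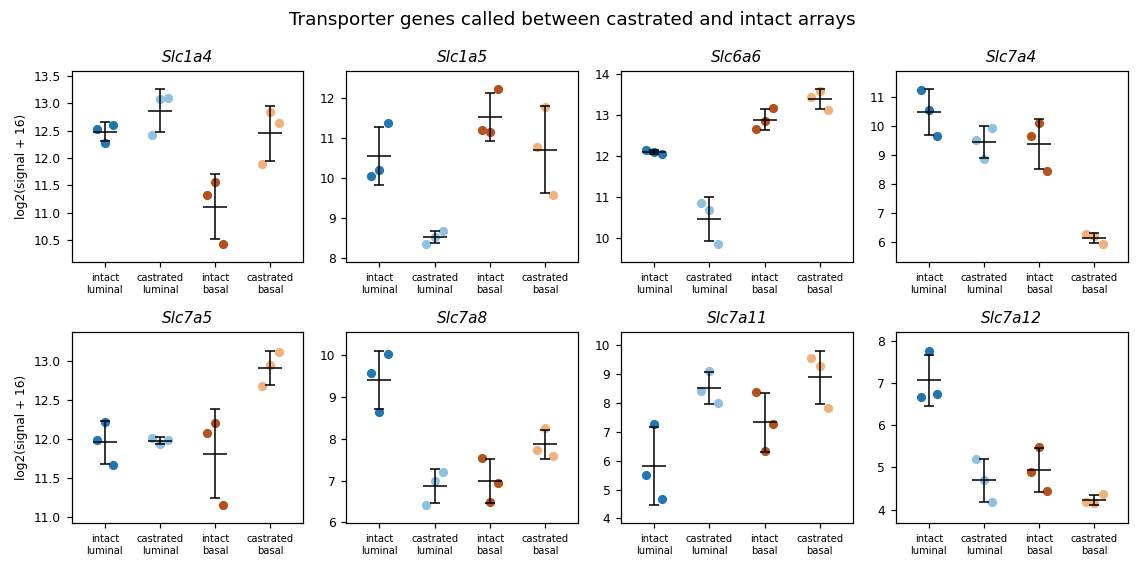
Points are log2(signal + 16) on single arrays, and bars the mean ± SD of 3 arrays per group, for the 8 genes called between castrated and intact arrays of either cell type; each panel has its own vertical axis, which does not start at 0. Slc6a6 and Slc7a8 are lower on the castrated than on the intact luminal arrays and not on the castrated basal arrays.

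The second question was how basal cells responded. The large neutral amino acid carrier Slc7a5 and the alanine, serine and cysteine carrier Slc1a4 rose, and Slc7a4 fell. These were 3 of 47 genes (2 higher, 1 lower), beside 2.62% called over all genes tested (1.12% higher and 1.50% lower). The median log2 difference was -0.26 over the 47 genes and -0.11 over all genes tested. Over the 45 genes left without the opposite-strand genes it was -0.34.

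Slc7a5, the light chain that brings in leucine and other large neutral amino acids, had signals of 4301, 4700 and 2262 on intact and 6576, 7957 and 8880 on castrated basal arrays. All castrated arrays lay above all intact arrays, of which replicate 3 was the lowest. Slc7a5 rose by 1.11 (SE 0.27, adjusted p = 0.0358). The call was lost without intact basal replicate 3 (0.78, adjusted p = 0.108), without castrated basal replicate 2 (0.0903) or 3 (0.102), and without castrated luminal replicate 1 (0.0605), 2 (0.0579) or 3 (0.0563), the last through the shared spread. Its heavy chain Slc3a2 had signals of 6826, 6031 and 5363 in intact and 7985, 7453 and 11154 in castrated basal cells. These groups did not overlap either, but Slc3a2 did not pass (0.53 ± 0.22, adjusted p = 0.211).

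Slc1a4 had signals of 2551, 3001 and 1368 on intact and 3762, 7297 and 6359 on castrated basal arrays, again without overlap. Slc1a4 rose by 1.35 (SE 0.31, adjusted p = 0.0316). Its call was lost without intact basal replicate 3 (1.01, adjusted p = 0.0993) and without castrated basal replicate 2 (0.104) or 3 (0.0895). Its 2 other kept probe sets, fitted singly, differed by 0.28 and 0.49 and did not pass.

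Slc7a4, a relative of the cationic amino acid carriers, had signals of 785, 1070 and 327 on intact and 60.54, 56.96 and 44.90 on castrated basal arrays. The castrated arrays were close to each other and far below all intact arrays. Slc7a4 fell by 3.26 (SE 0.53, adjusted p = 0.00366), a call kept in all 12 leave-outs of 1 array. A second kept probe set of Slc7a4, fitted singly, differed by 0.17 (SE 0.98) and did not pass, so the fall rests on the brighter probe set.

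Among the carriers that did not pass in basal cells, Slc7a11 had signals of 317, 64.28 and 136 in intact and 722, 606 and 211 in castrated cells, which overlapped (1.56 ± 0.74, adjusted p = 0.278). Slc43a2 had 1988, 1174 and 437 in intact and 2591, 2479 and 5253 in castrated basal cells, without overlap (1.66 ± 0.48, adjusted p = 0.0722). It passed without intact luminal replicate 3 (adjusted p = 0.0376) or intact basal replicate 1 (0.0364) and with median centring (0.0278), and its 2 other probe sets did not pass (0.49 and -0.26). Slc6a2 had 746, 1293 and 790 in intact and 47.0, 139 and 793 in castrated basal cells, where replicate 3 alone reached the intact level (-2.22 ± 0.63, adjusted p = 0.0692). Without that array the difference was -3.23 and passed (adjusted p = 0.00212), as it did with array weights (-2.71, adjusted p = 0.0240). No member of Slc3, Slc6, Slc36, Slc38 or Slc43 was called in basal cells by limma (1, 3, 1, 1 and 1 of them had an unadjusted p under 0.05).

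On the castrated basal arrays the summed fibroblast markers were 22405 to 29271, against 39763 to 50728 on intact basal arrays, with 4 of 8 lower and Lum under the 40th percentile on all 3. Most of the castrated sum was Dcn (19295 to 25683), while Sparc went from 12407 to 16614 down to 390 to 1538, and the median log2 difference of the 8 was -2.39. The summed leukocyte markers were 1411 to 1765 against 558 to 1032, with 1 of 7 higher. The 6 seminal vesicle genes summed to 3576 to 5331 against 27368 to 42866, with 3 lower. The part of these cells in the transporter differences was not tested.

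**Figure D3:**
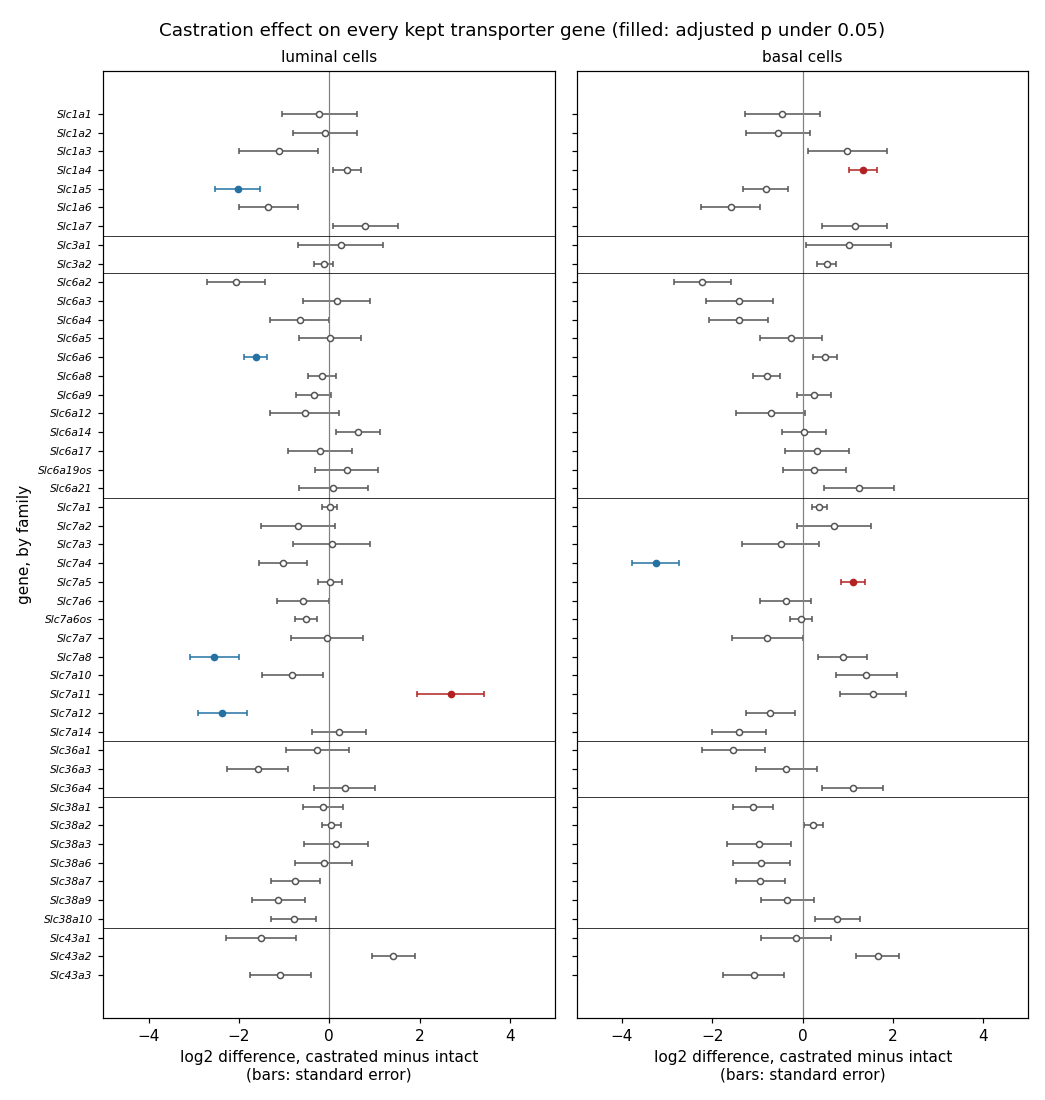
Points are log2 differences, castrated minus intact, of the 47 kept genes in luminal (left) and basal cells (right), with bars of 1 standard error; filled red points were called higher and filled blue points lower. In luminal cells 1 point is red and 4 are blue, and in basal cells 2 are red and 1 is blue.

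The third question was whether castration acted differently on the 2 cell types, which the interaction term tests. Slc6a6 and Slc7a8 passed, 2 of 47 genes (0 higher, 2 lower), beside 1.15% over all genes tested (0.676% higher and 0.471% lower). Slc6a6 had signals of 6385, 7385 and 9146 on intact and 11065, 12321 and 8855 on castrated basal arrays (0.49 ± 0.26, adjusted p = 0.335). Its effect in luminal cells was thus below that in basal cells by 2.13 (-2.13 ± 0.37, adjusted p = 0.00758), and the call was kept in all 12 leave-outs. Slc7a8 had signals of 169, 73.98 and 106 on intact and 198, 292 and 178 on castrated basal arrays, which did not overlap but did not pass (0.89 ± 0.55, adjusted p = 0.427). For Slc7a8 the interaction was -3.43 ± 0.77 (adjusted p = 0.0411), and 0.0629 with the replicate number as a block. That call was lost in 9 of the 12 leave-outs, where the adjusted p became 0.0905 and 0.0812 without intact luminal replicates 1 and 3, 0.140, 0.0962 and 0.0920 without castrated luminal replicates 1, 2 and 3, 0.0839 and 0.0598 without intact basal replicates 2 and 3, and 0.0632 and 0.0871 without castrated basal replicates 1 and 2. The remaining genes called in 1 cell type and not in the other did not pass the interaction: Slc7a5 (adjusted p = 0.214), Slc1a4 (0.375), Slc1a5 (0.501), Slc7a4 (0.198), Slc7a11 (0.711) and Slc7a12 (0.378). A difference between the cell types was therefore not shown for them.

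The last comparison set luminal against basal cells. In intact mice 14 of 47 genes passed (8 higher in luminal, 6 lower), beside 19.5% over all genes tested (11.0% higher and 8.45% lower). In castrated mice 16 of 47 passed (6 higher, 10 lower), beside 18.4% (11.2% higher and 7.22% lower). Of these, 9 were called in both surgery states with the same direction, 4 higher and 5 lower in luminal cells, 5 passed in intact and not in castrated mice, and 7 the reverse. The matching overlap over all genes tested is not given here, so these numbers cannot be read as particular to the transporters. The median log2 difference was 0.20 over the 47 genes in intact and -0.09 in castrated mice, against 0.07 and 0.09 over all genes tested. Without the 2 opposite-strand genes, which are not transporters, the medians over 45 genes were 0.31 and 0.11. In castrated mice 6 of these 45 were then higher and 9 lower. Genes listed as markers of other cells, and seminal vesicle genes, differed along the same comparison. The 8 fibroblast markers summed to 7704 to 13797 on intact luminal and 39763 to 50728 on intact basal arrays, and to 639 to 877 and 22405 to 29271 after castration, with 3 and 4 of 8 lower in luminal cells. Of the 6 seminal vesicle genes, 6 were higher in luminal cells of intact and 4 of castrated mice. The part of these cells in the differences below was not tested.

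Carriers higher in luminal cells in both states were Slc38a1, Slc6a14, Slc36a1 and Slc43a2. Slc38a1, a sodium-coupled carrier of glutamine and alanine, had signals of 1726, 2429 and 2052 on intact luminal and 136, 191 and 70.13 on intact basal arrays. After castration the values were 1910, 1618 and 2085 in luminal and 49.97, 59.79 and 38 in basal cells. No luminal array came near a basal one, and the differences were 3.89 ± 0.44 (adjusted p = 1.09e-05) and 4.86 ± 0.44 (adjusted p = 1.06e-06). Slc6a14, which accepts both neutral and cationic amino acids, had signals of 788 to 2176 on the 6 luminal and 55.3 to 95.82 on the 6 basal arrays. Its differences were 3.62 ± 0.48 in intact and 4.22 ± 0.48 in castrated mice. Second probe sets of Slc38a1 and Slc6a14, fitted singly, passed in the same direction in both states. Slc36a1, a proton-coupled carrier of small amino acids found on lysosomes, had signals of 230 to 670 on luminal arrays, 96.9, 135 and 6.899 on intact basal and 11.07, 9.907 and 6.591 on castrated basal arrays. Its differences were 2.28 ± 0.70 (adjusted p = 0.0290) and 3.55 ± 0.70 (adjusted p = 0.00161), the first lost without intact luminal replicate 1 (0.129) or intact basal replicate 3 (0.134). All castrated basal arrays of Slc36a1 lay under the 40th percentile.

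Slc43a2 was higher in luminal cells by 1.78 ± 0.48 in intact (adjusted p = 0.0142) and 1.54 ± 0.48 in castrated mice (adjusted p = 0.0332), although intact luminal replicate 3 (1768) lay below the highest intact basal array (1988). The first call was lost without intact luminal replicate 1 (0.0728) or 2 (0.0629) or intact basal replicate 3 (0.0746). The second was lost without castrated luminal replicate 1 (0.0610), 2 (0.121) or 3 (0.0902) or castrated basal replicate 1 (0.105) or 2 (0.109).

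Carriers lower in luminal, that is higher in basal cells, in both states were Slc6a6, Slc7a1, Slc7a6, Slc38a2 and the serotonin carrier Slc6a4. Slc7a1, the main importer of arginine and lysine in many cells, had signals of 9374, 8210 and 8642 on intact luminal and 15299, 15648 and 14165 on intact basal arrays. After castration it had 7924, 10167 and 8367 in luminal and 17220, 17417 and 24414 in basal cells. The groups did not overlap in either state, and the differences were -0.78 ± 0.17 (adjusted p = 0.00361) and -1.15 ± 0.17 (adjusted p = 1.47e-04). Its 2 other kept probe sets passed in the same direction in both states. Slc38a2, a sodium-coupled neutral carrier that rises with amino acid shortage in many cells, ran from 3511 to 5153 on luminal and from 6517 to 10217 on basal arrays. Its differences were -0.87 ± 0.22 (adjusted p = 0.00819) and -1.06 ± 0.22 (adjusted p = 0.00209). The 2 other probe sets of Slc38a2, fitted singly, passed in castrated mice and not in intact mice (-0.33 and -0.54), where the call was also lost with the mean of its probe sets (-0.58, adjusted p = 0.0662) and without an intensity trend (0.0726).

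For Slc6a6 the luminal deficit was -0.79 ± 0.26 in intact mice (adjusted p = 0.0393) and -2.92 ± 0.26 in castrated mice (adjusted p = 8.26e-07). The call in intact mice was lost without intact luminal replicate 1 (0.0772), 2 (0.0896) or 3 (0.0732), intact basal replicate 2 (0.0770) or 3 (0.135), or castrated basal replicate 1 (0.0506). The same call was lost with quantile normalization (0.0633), median centring (0.0704), array weights (0.0994) and no intensity trend (0.137). Slc7a6, a light chain that exchanges cationic for neutral amino acids, had signals of 155, 112 and 473 against 554, 1330 and 742 in intact and 113, 190 and 103 against 647, 964 and 392 in castrated mice. The groups did not overlap, and the differences were -1.92 ± 0.57 (adjusted p = 0.0252) and -2.13 ± 0.57 (adjusted p = 0.0146). The first call was lost without intact luminal replicate 1 (0.0833) or 2 (0.111) or intact basal replicate 2 (0.106), and the second without castrated luminal replicate 1 (0.0592) or 3 (0.0622) or castrated basal replicate 2 (0.0652).

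Slc6a4 had signals of 486, 394 and 366 on intact and 295, 141 and 68.92 on castrated basal arrays, and 22.17, 4.035 and 70.28 on intact and 10.52, 15.58 and 4.267 on castrated luminal arrays. The luminal arrays were mostly under the 40th percentile, and the differences were -3.41 ± 0.66 and -2.64 ± 0.66. The sort was lineage-negative and EpCAM-positive, which is meant to leave out blood cells. The 7 leukocyte markers summed to 289 to 679 on intact luminal and 558 to 1032 on intact basal arrays, with 1 of 7 lower in luminal cells, and to 190 to 344 and 1411 to 1765 after castration, with 2 of 7 lower. Their part in the Slc6a4 difference was not tested.

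Passing in intact and not in castrated mice, Slc7a8 (2.43 ± 0.55), Slc38a10 (2.16 ± 0.50), Slc7a12 (2.12 ± 0.54) and Slc1a4 (1.37 ± 0.31) were higher in luminal cells, and the creatine carrier Slc6a8 was lower (-1.17 ± 0.31). Slc6a8 lost its call without intact basal replicate 3 (-0.84, adjusted p = 0.0669), the array with its highest signal, 8966. Of these 5 genes, only Slc7a8 passed the interaction, so a difference between the surgery states was not shown for Slc38a10 (adjusted p = 0.371), Slc7a12 (0.378), Slc1a4 (0.375) or Slc6a8 (0.586). Of the other kept probe sets of Slc38a10, fitted singly, 1 passed in both states (1.57 and 1.56) and 1 in intact mice alone (2.02, adjusted p = 0.0173). The rest passed in neither state, with differences of 1.62, 0.90 and 0.32 in intact mice. The 2 other probe sets of Slc1a4 did not pass in intact mice (0.03 and 0.80), nor did the mean of its probe sets (0.73, adjusted p = 0.0967). Slc7a12 did not pass with 1 added in place of 16 (adjusted p = 0.0585), and it met the filter through its intact luminal arrays alone. Passing in castrated and not in intact mice, Slc7a4 (3.31 ± 0.53) and Slc38a6 (2.00 ± 0.64) were higher in luminal cells. The glutamate carrier Slc1a3 (-3.92 ± 0.88), Slc1a5 (-2.19 ± 0.50), the heavy chain Slc3a2 (-1.03 ± 0.22), its partner Slc7a5 (-0.94 ± 0.27) and the opposite-strand gene Slc7a6os (-0.91 ± 0.25) were lower in luminal cells. None of these 7 passed the interaction, with adjusted p-values of 0.198 for Slc7a4, 0.778 for Slc38a6, 0.508 for Slc1a3, 0.501 for Slc1a5, 0.392 for Slc3a2, 0.214 for Slc7a5 and 0.618 for Slc7a6os. Other probe sets of Slc1a3 (-2.98, adjusted p = 0.00637), Slc7a4 (3.16, adjusted p = 0.0332) and Slc7a6os (-1.86, adjusted p = 0.0461) passed in intact mice as well. The remaining kept probe sets of Slc1a3 did not pass in intact mice (-1.73, adjusted p = 0.181, and 0.29, adjusted p = 0.811). In castrated mice the first of these passed (-2.86, adjusted p = 0.0277) and the second did not (-1.37, adjusted p = 0.157). The other probe set of Slc1a5 pointed the other way (0.57 ± 0.37, adjusted p = 0.348), and the mean of its probe sets did not pass (-0.81, adjusted p = 0.0851), so that difference rests on the probe set used. Slc1a3 lay under the 40th percentile on all 3 castrated luminal arrays, at 3.611, 4.28 and 7.19, against 515, 85.23 and 575 on castrated basal arrays, so its fold depends on the constant added.

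Several of these calls were lost when 1 array was left out. Slc38a6 lost its call without castrated luminal replicate 1 (adjusted p = 0.104), 2 (0.0962) or 3 (0.106) or castrated basal replicate 1 (0.0568) or 2 (0.142). Slc7a5 lost its call between the cell types without castrated luminal replicate 1 (0.0610), 2 (0.0678) or 3 (0.0601) or castrated basal replicate 2 (0.0544) or 3 (0.0693). Slc7a6os lost it without castrated luminal replicate 3 (0.0759). Calls of Slc1a4, Slc1a5, Slc1a3, Slc3a2, Slc7a4, Slc7a8, Slc7a12 and Slc38a10 between the cell types were kept in all 12 leave-outs of 1 array, which do not bear on the choice of probe set or constant.

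The other heavy chain was not called in any comparison. Slc3a1, which joins Slc7a9 and Slc7a13 in kidney, had signals of 32.75 to 329 on luminal arrays and 34.98 to 914 on basal arrays, and both of those partners were too dim to be kept. Slc7a7, the exchanger of cationic amino acids in gut and kidney, and Slc7a10, which carries small neutral amino acids, did not pass, with adjusted p-values from 0.362 to 0.983 for Slc7a7 and from 0.206 to 0.561 for Slc7a10. Slc38a9, the lysosomal arginine sensor of mTORC1, had signals of 202, 170 and 229 in intact and 98.3, 96.15 and 59.03 in castrated luminal cells, and did not pass (-1.12 ± 0.60, adjusted p = 0.322). Its other kept probe sets, fitted singly, mostly pointed the other way (0.56, 0.71, 0.42, 0.94 and -0.32), and none passed. Slc43a3, which carries purine nucleobases rather than amino acids, did not pass in any comparison.

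**Figure D4:**
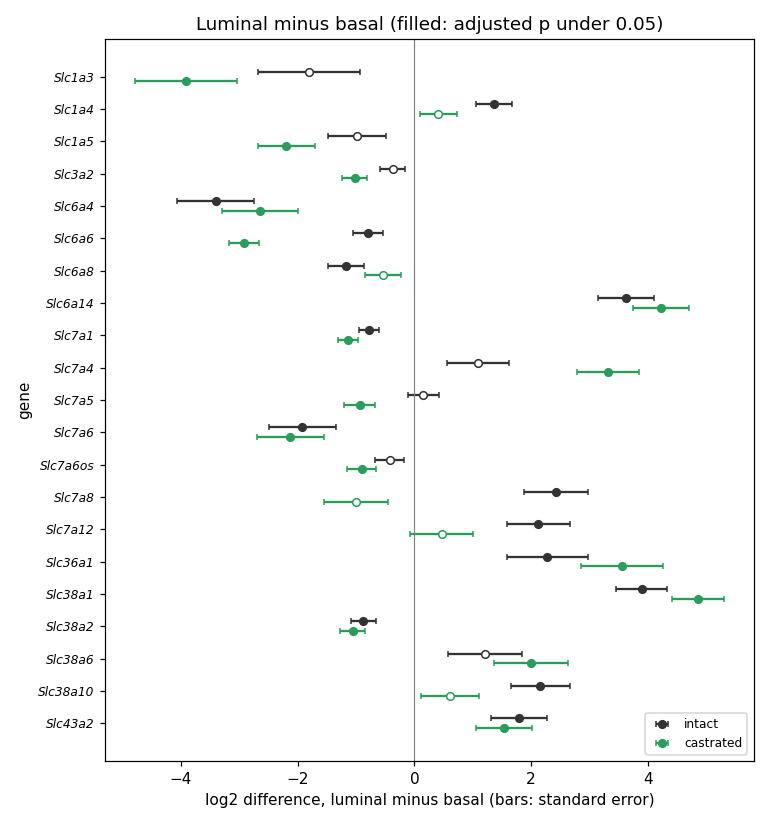
Points are log2 differences, luminal minus basal, in intact (black) and castrated mice (green) for the 21 genes called in either state, with bars of 1 standard error; filled points had an adjusted p under 0.05. Slc38a1, Slc6a14 and Slc36a1 lie furthest to the right in castrated mice, with Slc7a4, and Slc1a3 furthest to the left.

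Genes that respond to amino acid supply were listed beside the carriers. Of 22 kept genes of the ATF4-driven amino acid response, 4 rose and 0 fell in castrated basal cells, with a median log2 difference of 0.84 against -0.11 over all genes tested, of which 1.12% were higher and 1.50% lower. They were Chac1, which degrades glutathione (2.32 ± 0.31, adjusted p = 7.11e-04), Trib3, a pseudokinase induced by stress (2.24 ± 0.47, adjusted p = 0.0186), the asparagine synthetase Asns (1.11 ± 0.26, adjusted p = 0.0326) and Psat1, of serine synthesis (1.09 ± 0.21, adjusted p = 0.0127). In luminal cells 1 of the 22 rose and 2 fell, beside 2.90% and 2.96% over all genes tested, with a median of -0.07: Trib3 rose (2.29 ± 0.47), and the transcription factors Ddit3 (-1.33 ± 0.33) and Atf3 (-0.69 ± 0.17) fell. Ddit3 was the only one of the 22 to pass the interaction (-2.40 ± 0.47, adjusted p = 0.0170). Atf4 itself did not pass after castration in luminal (-0.11 ± 0.14) or basal cells (-0.02 ± 0.14).

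Between the cell types, 6 of the 22 were higher and 4 lower in luminal cells of intact mice, and 3 higher and 6 lower in castrated mice, beside 19.5% and 18.4% called in either direction over all genes tested. Asns (1.45 ± 0.26), the stress-response gene Nupr1 (4.92 ± 0.86) and the kinase Eif2ak3 (3.27 ± 0.62) were higher in intact luminal cells, and the mTORC1 inhibitor Ddit4 was lower (-1.20 ± 0.20). In castrated mice Ddit4 (-1.88 ± 0.20), Sesn2 (-2.05 ± 0.42), Ddit3 (-1.59 ± 0.33) and Atf4 (-0.61 ± 0.14) were lower in luminal cells.

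Of 23 kept amino acid enzymes, 1 rose and 3 fell in castrated luminal cells, beside 5.86% called over all genes tested. Those that fell included both enzymes that make taurine from cysteine, Cdo1 (-3.64 ± 0.27, adjusted p = 3.77e-07) and Csad (-1.13 ± 0.29, adjusted p = 0.0285), and the glutamine synthetase Glul (-0.62 ± 0.16), and the tryptophan-degrading Ido1 rose (2.40 ± 0.65). In basal cells 0 rose and 3 fell, beside 2.62% called: Glul (-1.19 ± 0.16), Cdo1 (-1.28 ± 0.27) and the serine enzyme Shmt1 (-1.34 ± 0.33). Cdo1 passed the interaction (-2.36 ± 0.38, adjusted p = 0.00521), as Slc6a6 did, and Csad did not (-1.43 ± 0.41, adjusted p = 0.123). Between the cell types, 8 of 23 were higher and 3 lower in luminal cells of intact mice, beside 19.5% called over all genes tested, among them Cdo1 (4.09 ± 0.27), the alanine aminotransferases Gpt2 (2.57 ± 0.34) and Gpt (-2.62 ± 0.49) and the aspartate aminotransferase Got1 (2.70 ± 0.51). In castrated mice 9 were higher and 2 lower, beside 18.4% called, led by the argininosuccinate lyase Asl (2.62 ± 0.32), Ido1 (5.08 ± 0.65), Gpt2 (2.22 ± 0.34) and Cdo1 (1.73 ± 0.27).

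Of 23 kept genes of amino acid sensing by mTORC1, none passed after castration by limma in luminal or basal cells (3 and 7 had an unadjusted p under 0.05). Over all genes tested 5.86% and 2.62% were called in these comparisons. Between the cell types 2 of the 23 were higher in luminal cells of intact and 2 of castrated mice, and 0 were lower. The shares called over all genes tested were 19.5% and 18.4%. The Rag GTPase Rragd was higher in luminal cells in intact (4.02 ± 0.68) and castrated mice (4.04 ± 0.68), as were Depdc5 in intact (1.27 ± 0.39) and Lamtor2 in castrated mice (1.30 ± 0.42). Of 15 kept carriers of amino acids and peptides in other families, none passed after castration by limma (2 in luminal and 3 in basal cells had an unadjusted p under 0.05). Between the cell types 1 was higher and 1 lower in luminal cells of intact mice, and 2 were higher and 0 lower in castrated mice. The shares over all genes tested are those given above. The lysosomal cystine exporter Ctns was higher in luminal cells in intact (3.76 ± 0.74) and castrated mice (2.72 ± 0.74), the mitochondrial carrier Slc25a29 in castrated mice (2.54 ± 0.73), and the peptide carrier Slc15a2 was lower in luminal cells of intact mice (-2.86 ± 0.50).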

How the data were processed

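The authors' deposited values were signal intensity on a linear scale from 12 Affymetrix arrays, made with the MAS5 algorithm that the submitters' processing notes name (version not given in the sources used here) and already scaled, with equal trimmed means on all arrays. The RNA was amplified with a NuGEN Pico kit, per the labels' protocols. Of 45101 probe sets, 64 controls were left out; 34945 had 1 gene symbol, 932 several and 9160 none here. Values were transformed as log2(signal + 16). Probe sets above the 40th percentile of the array on 3 or more arrays were kept, and the 1 with the highest mean stood for its gene (14645 of 18193 genes). The 4 group means were fitted with limma 3.58.1 in R 4.3.3 (eBayes with intensity trend, 8 residual degrees of freedom, Benjamini-Hochberg over all genes). Plots used Python 3.11.15 and matplotlib 3.10.9. The fit was tested on simulated data.

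Members, lists, tests and alternatives were chosen with earlier results of these data known. Named were all genes called in any comparison, the heavy chains and their partners, and up to 4 called genes per list and comparison; Slc6a2, Slc43a2 after castration, Slc38a9, Atf4 and some uncalled carriers were named after their values were seen. Because the series' design pairs castrated with intact mice within a set, equal replicate numbers were taken as paired, although the labels do not tie the numbers to the sets. Deviations of same-numbered arrays from their group means had correlations from -0.0072 to 0.0258, within the range of other pairs of arrays (-0.0325 to 0.0352). The model had no replicate term. An alternative added the replicate number as a fixed block over all groups. Another took luminal and basal arrays of the same surgery state and number as a random block, which does not pair castrated with intact mice. Other alternatives were scaling, the added constant, the filter, probe set handling, the variance model and leaving out each array. No scan date was used here.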

Additional observations from a re-analysis of the deposited data

Results flagged for a closer look

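The castration effect differed between luminal and basal cells, by the interaction term of limma, for 2 genes. For the taurine carrier Slc6a6 it was -2.13 (log2, adjusted p = 0.00758), lower on 3 of 3 castrated luminal arrays than on every intact luminal array. For the light chain Slc7a8 it was -3.43 (adjusted p = 0.0411, or 0.0629 with the replicate number as a block), lower on 3 of 3 castrated luminal and higher on 3 of 3 castrated basal arrays than on every intact array of the same cell type. Groups of 3 arrays are too small for a test of single outlying arrays.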

How the results depend on the processing

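No log2 difference of the 40 calls made on 22 genes changed sign under any alternative run. Over the 11 alternatives other than leave-outs, 19 calls were kept throughout and 21 were lost at least once, 14 of them without an intensity trend; 23 were kept in all 12 leave-outs of 1 array, and 16 under both. Slc7a12 gave no value with the stricter filter. Counts of called carriers for luminal castration, basal castration, the intact cell types against each other and the interaction, 5, 3, 14 and 2 in the report, became 3, 1, 9 and 0 without an intensity trend (limma; 7 interactions had an unadjusted p under 0.05). Over all genes tested, the shares called without the trend were 3.79%, 1.06%, 16.2% and 0.184%. In the report they were 5.86%, 2.62%, 19.5% and 1.15%. The luminal count was 9 with array weights, where 13.3% of all genes were called. The basal count was 1 with the mean of all probe sets of a gene, where 3.05% of all genes were called. The interaction count was 1 with the replicate number as a fixed replicate block, with 1 added in place of 16, and with no filter. In these 0.881%, 0.813% and 0.737% of all genes were called. The fixed block ended no other call. The random block, of luminal and basal arrays of the same surgery state and number, ended no call (consensus correlation 0.0125). The cause of these moves was not tested. Leaving out 1 array gave 2 to 6 calls for castration in luminal cells, the fewest without each castrated luminal array in turn, 1 to 4 in basal cells, the fewest without intact basal replicate 3 or castrated basal replicate 2, 10 to 16 for luminal against basal in intact and 11 to 17 in castrated mice, and 1 to 2 for the interaction. The shares of all genes called in those leave-outs ran from 2.74% to 6.72% for luminal and from 1.19% to 4.25% for basal castration. They ran from 14.7% to 21.4% between the intact and 11.7% to 21.2% between the castrated cell types, and from 0.444% to 1.11% for the interaction. Without replicate 3 of every group, chosen after seeing the data, the luminal castration count was 3 and the interaction count 1, beside 3.55% and 0.567% of all genes. In that run 10 of the 40 calls were lost. Median centring moved the median difference of all genes from -0.09 to 0.29 in luminal and from -0.11 to 0.23 in basal cells, and gave 2 higher and 4 lower carriers in luminal cells (1 and 4 in the report) and 3 higher and 1 lower in basal cells. Quantile normalization moved these medians to 0.04 and 0.03 and gave 1 higher and 1 lower in basal cells (2 and 1 in the report). Of all genes tested, median centring called 8.69% in luminal and 4.27% in basal cells, and quantile normalization 2.17% in basal cells. Signal near background limits the folds of Slc7a12, Slc1a3, Slc36a1, Slc6a4, Slc7a11 and Slc38a6.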
